A study of Mus musculus with 18 samples.

Results

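Glutathione transferases and glutathione peroxidases were examined in 12 endothelial libraries and 6 tumour cell libraries. The members were all protein-coding mouse genes named as transferases of the alpha, mu, pi, theta, omega, kappa or zeta class, as microsomal glutathione transferases or as glutathione peroxidases, together with Gm3776, an alpha-class transferase gene without a class symbol. This rule gave 34 genes, 26 transferases and 8 peroxidases, out of 55401 genes in the endothelial table, and all 34 were also among the 22612 genes of the tumour cell table. Genes with a mean of at least 10 per library were tested, which kept 27 members of 18511 genes in the endothelial cells and 21 members of 11602 genes in the tumour cells, with 19 members tested in both. The family was selected because Gsta1 and Gm3776 were among the genes that differed most between the endothelial groups. Their values in the comparisons that chose them are therefore given as a description and without a p-value. Where they are counted as called in those comparisons, the count describes how they were chosen and is no test of them.

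High endothelial cells (HECs) line the venules through which lymphocytes enter lymph nodes, whereas blood endothelial cells (BECs) line other blood vessels. All endothelial cells came from female wild-type C57BL/6 mice and were sorted as CD45- CD31high cells, with HECs taken from inguinal lymph nodes as the PNAd+ cells. The 4 groups of 3 libraries each were BECs of the normal mammary fat pad (normal BECs), BECs of EO771 tumours (tumour BECs), HECs of lymph nodes from mice without a tumour (normal HECs) and HECs of nodes from tumour-bearing mice (tumour HECs), with lymph node metastases as their tissue in the labels. The remaining 6 libraries were of EO771, a breast cancer cell line from mouse, after either vehicle (DMSO in saline) or 12-HETE, a hydroxylated fatty acid made by 12-lipoxygenase, with 3 libraries each. BECs and HECs also differed in tissue of origin, which cannot be told apart from cell type in these comparisons. The labels do not tie the replicates to separate mice or cultures, so p-values measure the spread between these libraries, and in bulk samples fewer cells of a type and less RNA per cell cannot be told apart.

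Cytosolic glutathione transferases join the thiol of glutathione to reactive electrophiles, such as lipid aldehydes, and their classes differ in substrates and in the other reactions they carry out. The microsomal enzymes are unrelated membrane proteins with similar activities, and the glutathione peroxidases use glutathione to reduce hydrogen peroxide and lipid hydroperoxides. Hydroperoxides of arachidonic acid are also the first products of lipoxygenases, and their reduction gives hydroxy acids such as 12-HETE.

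The endothelial libraries summed to 56410964 to 79357993 deposited units and the EO771 libraries to 17294591 to 18624179 counts. A list of 10 endothelial markers summed to 2634 to 3909 CPM (units scaled to a common library total) in the endothelial libraries. A list of 6 high endothelial markers summed to 970 to 1327 CPM in normal HECs and 2219 to 3052 CPM in tumour HECs, against 1.38 to 4.28 CPM in BECs. Of these, Ccl21a was at 0 in all HEC libraries and Madcam1 in all normal HEC libraries. Normal HEC replicate 2 stood apart, with Chst4, a sulphotransferase of HECs, at 4 units against 19627 and 21144 in the other normal HEC libraries. Tumour HEC replicate 3 had Fut7 at 12879 units against 57586 and 66399. Epithelial markers reached 93.0 CPM in tumour BEC replicate 3 against 15.2 and 18.9 CPM in the other tumour BECs. A list of 8 fibroblast and pericyte markers, all of them in the table, summed to 827 to 836 CPM in normal BECs, 90.0 to 121 CPM in tumour BECs, 25.4 to 26.4 CPM in normal HECs and 11.1 to 12.0 CPM in tumour HECs, with Lum at 0 in normal BECs and normal HECs and Rgs5 at 0 in tumour HECs. Acta2 made up 621 to 622 CPM of this sum in normal BECs, where Col1a1, Col1a2, Pdgfrb and Rgs5 were also highest, whereas Dcn reached higher values in tumour BECs (3.08 to 10.3 CPM against 2.14 to 3.55 CPM) and Pdgfra was alike in normal HECs (15.3 to 16.9 CPM against 13.9 to 17.6 CPM). A list of 6 myeloid markers summed to 108 to 128 CPM in normal BECs, 1456 to 1948 CPM in tumour BECs, 484 to 510 CPM in normal HECs and 359 to 376 CPM in tumour HECs, with Adgre1 at 0 in tumour HECs. In HECs this sum was nearly all Cd68 (477 to 503 CPM and 350 to 370 CPM), with Lyz2 at 3.40 to 6.62 CPM. Between normal and tumour BECs, erythroid markers (0.591 to 2.07 CPM against 40.2 to 66.03 CPM), T cell markers (0 to 0.439 CPM against 22.0 to 40.9 CPM), adipocyte markers (24.5 to 28.8 CPM against 4.85 to 5.17 CPM) and the endothelial markers themselves (3686 to 3909 CPM against 2719 to 2773 CPM) differed as well. The T cell sum in tumour BECs was nearly all Cd4 (21.0 to 40.1 CPM), with Cd3d, Cd3e, Cd3g, Cd8a and Trac each at 0.401 CPM or below. The adipocyte sum in normal BECs came from Plin1 and Pparg alone. Adipoq, Cidec and Lep were at 0 in all normal BEC libraries, whereas no gene of that list was at 0 throughout tumour BECs. The sums of these lists moved with the BEC groups, and their part in the results below was not tested.

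A gene was called when its DESeq2 adjusted p (Benjamini-Hochberg, over all genes tested) was below 0.05 and its log2 fold change exceeded 1 in size. In normal HECs against normal BECs, 8 of 27 members were called higher, beside 17.1% of all genes tested, and 9 were called lower, beside 15.1%. Gsta1 and Gm3776, which had been chosen by this comparison, were among the 8, and without them 6 of 25 members were called higher and 9 lower. The median log2 fold change over the 27 members was -0.22, against 0.0046 over all genes. In tumour HECs against tumour BECs, 6 members were called higher, beside 11.2% of genes, and 4 lower, beside 10.7%, or 4 and 4 without the pair. In tumour HECs against normal HECs, 3 members were called higher, which were Gsta1, Gm3776 and Gsta2, beside 4.58% of genes. Without the pair that this comparison had helped to choose, 1 of 25 was called higher. With DESeq2 none was called lower, beside 3.21%. At an unadjusted p below 0.05, 9 members were lower, beside 7826 of 18511 genes that passed in either direction. edgeR's quasi-likelihood test also called 3 higher and 0 lower. In tumour BECs against normal BECs, 5 members were called higher, beside 12.4% of genes, and 6 lower, beside 10.8%. Gsta1 and Gm3776 were again among the higher members, and without them only Gsta2, Gstt2 and Gstt3 were called higher. This comparison did not choose the pair, but it shares its normal BEC libraries with a comparison that did. By mean normalised count, 15 of the 27 members were highest in normal BECs, 5 in normal HECs, 5 in tumour HECs and 2 in tumour BECs, or 15, 4, 6 and 2 by CPM. The shares of all genes tested that were highest in each group are not given here, so these counts are not read as a trait of the family. The 7 members under the filter (Gstm3, Gstm6, Gstt4, Gstp3, Gpx2, Gpx5 and Gpx6) held at most 76 deposited units in any endothelial library.

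**Figure D1:**
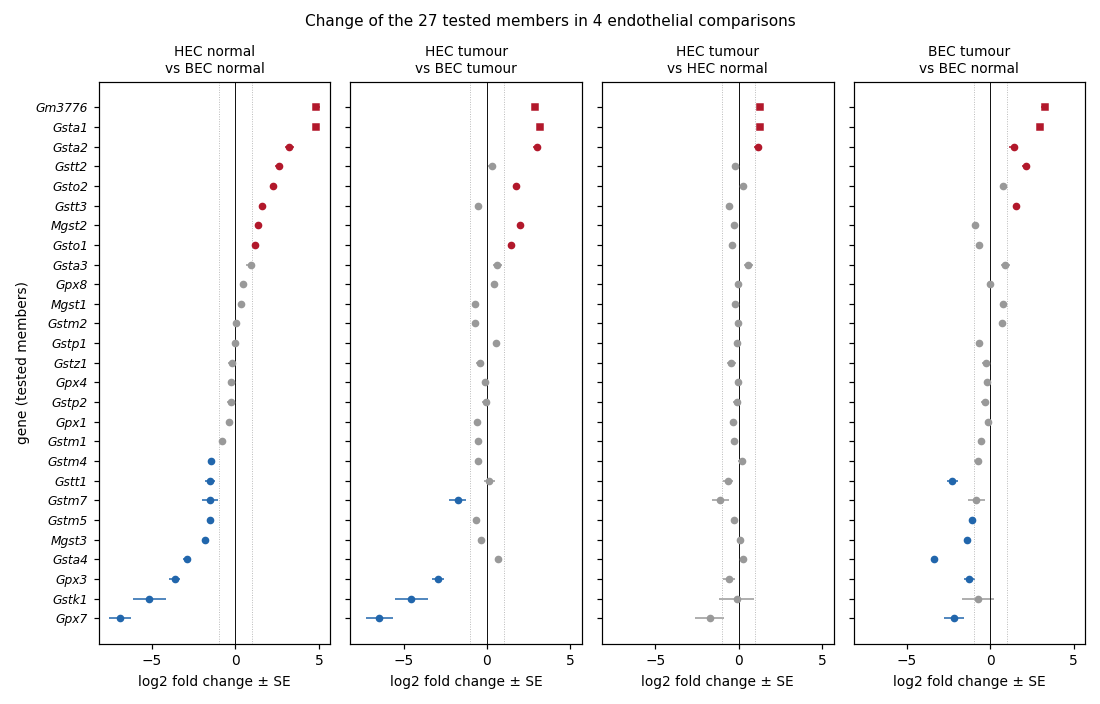
Log2 fold change (x axis, bars are standard errors) of the 27 tested members (y axis) in the 4 endothelial comparisons, with dotted lines at 1 and -1. Red and blue mark members called higher and lower, grey marks members not called, and squares mark Gsta1 and Gm3776, which were chosen by 3 of these comparisons. In those 3 the colour of the squares is a description and no test. The sizes for Gpx7 and Gstk1 against HECs rest on values at or near 0 in HECs.

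The same members differed between HECs and BECs in normal and tumour-bearing mice in part. The 6 members called higher in tumour HECs than tumour BECs (Gsta1, Gm3776, Gsta2, Gsto1, Gsto2 and Mgst2) were also among the 8 called higher in the normal tissues, which is 75% of the latter and 100% of the former. Gsta1 and Gm3776 were chosen by both comparisons, and without them the overlap was 4 of 6 and 4 of 4. The 4 members called lower (Gpx3, Gpx7, Gstk1 and Gstm7) were among the 9 called lower in the normal tissues, or 44.4% of the latter and 100% of the former. Both comparisons set HECs against BECs, and the overlap over all genes is not given here. These shares are therefore not read as particular to the family. Of the members called in the normal tissues alone, Gsta4, Gstt1, Gstt2, Gstt3, Gstm5 and Mgst3 were also called between the BEC groups, whereas Gstm4 was not. In all, 17 members, with Gsta1 and Gm3776 among them, were called in at least 1 of the 4 comparisons between groups and 10 in none. The share of all genes called in at least 1 is not given here, so this count is not read as a trait of the family. Beside the pair chosen for its differences, Gsta2 was called in all 4.

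The alpha class was represented by 5 genes. Gsta1, Gm3776 and Gsta2 lie within a cluster on chromosome 9 that also holds Gsta4, and Gsta3 lies on chromosome 1 (all coordinates are on GRCm38). The coding sequences of Gsta1 (chr9:78230656-78242684, plus strand) and Gm3776 (chr9:78257129-78269166, plus strand) differed at 2 of 672 bases and shared an identical run of 565 bases, whereas Gsta1 and Gsta2 (chr9:78331018-78355788, minus strand) differed at 14 of 669 aligned bases. Coding bases 561 to 620 are shown for these 3 genes because they hold 1 of the 2 positions that separate Gsta1 from Gm3776, and capitals mark the positions that differ among the 3.
Gsta1, chr9:78242467-78242526, plus strand: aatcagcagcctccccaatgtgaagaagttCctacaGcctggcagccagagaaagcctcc
Gm3776, chr9:78268950-78269009, plus strand: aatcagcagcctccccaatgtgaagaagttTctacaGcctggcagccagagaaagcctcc
Gsta2, chr9:78331176-78331235, minus strand: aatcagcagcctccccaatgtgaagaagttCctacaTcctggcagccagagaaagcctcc
Only 1 base in this stretch tells Gsta1 from Gm3776, and another tells Gsta1 from Gsta2. Of all 100-base stretches of its annotated transcripts, 85.5% were found in another gene for Gm3776 and 80.6% for Gsta1, against 28.4% for Gsta2. The handling of reads that map to several places is not given in the sources used here, so the division of reads between Gsta1 and Gm3776 is uncertain, and their sum is given beside each gene.

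Gsta1 and Gm3776 encode alpha-class transferases. Normalised counts of Gsta1 were 38.8, 41.2 and 47.7 in normal BECs, 316, 366 and 318 in tumour BECs, 1437, 1058 and 1169 in normal HECs and 3005, 2987 and 3078 in tumour HECs. For Gm3776 they were 33.5, 21.2 and 37.6, 299, 255 and 341, 854, 941 and 914 and 2185, 2192 and 2282 in the same order. Both genes were lowest in normal BECs and highest in tumour HECs, and no neighbouring groups overlapped. Their summed values were 73.3 ± 11.5 (SD, n = 3) in normal BECs, 632 ± 23.9 in tumour BECs, 2124 ± 151 in normal HECs and 5243 ± 102 in tumour HECs. The log2 fold change of the sum was 4.85 for normal HECs against normal BECs, 3.05 for tumour HECs against tumour BECs, 1.30 for tumour HECs against normal HECs and 3.10 for tumour BECs against normal BECs. The ratio of Gsta1 to Gm3776 had group means of 1.46 in normal BECs, 1.14 in tumour BECs, 1.36 in normal HECs and 1.36 in tumour HECs, and ranged from 0.934 to 1.94 over the libraries, values that rest on how the shared reads were divided.

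Gsta2, which encodes a further alpha-class enzyme, followed the same order of groups. Its normalised counts were 23.8, 35.3 and 21.3 in normal BECs, 64.9, 67.7 and 76.7 in tumour BECs, 292, 259.5 and 194 in normal HECs and 603, 457 and 590.0 in tumour HECs, with no overlap between any neighbouring groups. The log2 fold change was 3.23 ± 0.28 (SE) for normal HECs against normal BECs (DESeq2 adjusted p = 3.14e-29) and 2.98 ± 0.25 for tumour HECs against tumour BECs (DESeq2 adjusted p = 2.38e-32). It rose in tumour HECs against normal HECs by 1.15 ± 0.23 (DESeq2 adjusted p = 7.58e-06), a call that was lost without normal HEC replicate 3, where the value was 0.99. In tumour BECs against normal BECs it rose by 1.40 ± 0.29 (DESeq2 adjusted p = 6.98e-06). Because Gsta2 shares sequence with the pair, part of its reads may not be separable from theirs. When Gsta1, Gm3776, Gsta2 and the neighbouring gene Gm10639 were summed into 1 row, an alternative added after seeing the data, 1 member row was called higher in tumour HECs than in normal HECs and 3 in tumour BECs than in normal BECs.

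**Figure D2:**
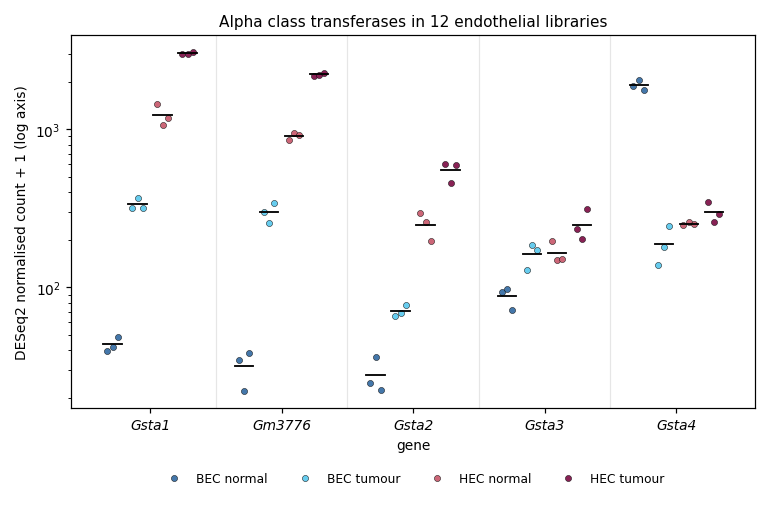
Normalised count + 1 (log axis) of the alpha-class members in the 12 endothelial libraries, with a point per library and a line at the group mean. Gsta1, Gm3776 and Gsta2 step up from normal BECs over tumour BECs and normal HECs to tumour HECs, whereas Gsta4 is high in normal BECs and low in the other 3 groups.

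Gsta4, an enzyme known for conjugating the lipid peroxidation product 4-hydroxynonenal, followed another pattern than its neighbours. Normalised counts were 1874, 2049 and 1779.8 in normal BECs, 138, 178 and 245 in tumour BECs, 245, 258 and 249 in normal HECs and 345, 259.5 and 290.0 in tumour HECs. Every normal BEC library lay above every other library. Its log2 fold change was -3.34 ± 0.20 in tumour BECs against normal BECs (DESeq2 adjusted p = 3.85e-63) and it was lower in normal HECs than in normal BECs (-2.92 ± 0.20, DESeq2 adjusted p = 2.66e-49). Between tumour HECs and tumour BECs its log2 difference of 0.67 ± 0.20 did not reach the fold threshold. The summed fibroblast and pericyte list, mostly Acta2, was also highest in normal BECs, as given above. Gsta3, on chromosome 1, ranged from 71.1 to 310 normalised counts over the 12 libraries and was not called in any of the 4 comparisons.

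Promoters, taken as 250 bases before to 50 after the start of the RefSeq transcript (GRCm38.p6), were found for 32 of the 34 members. The core of the antioxidant response element, TGACNNNGC read on both strands, was in 4 of these 32 (12.5%), namely Gsta3, Gstm5, Gstm7 and Mgst1, beside 14.0% of 27025 genes with a promoter. The promoters of Gsta1 and Gm3776 are shown because their counts moved together and the sequences aligned with 284 of 287 bases identical (99.0%), and that of Gsta3 because it holds the match, in capitals.
Gsta1 promoter, chr9:78230419-78230718, plus strand: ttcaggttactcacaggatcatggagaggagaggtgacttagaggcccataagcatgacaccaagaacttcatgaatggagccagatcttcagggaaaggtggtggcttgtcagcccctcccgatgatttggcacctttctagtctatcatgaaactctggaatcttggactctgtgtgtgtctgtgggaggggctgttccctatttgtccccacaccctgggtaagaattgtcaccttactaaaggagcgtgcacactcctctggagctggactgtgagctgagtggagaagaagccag
Gm3776 promoter, chr9:78256879-78257178, plus strand: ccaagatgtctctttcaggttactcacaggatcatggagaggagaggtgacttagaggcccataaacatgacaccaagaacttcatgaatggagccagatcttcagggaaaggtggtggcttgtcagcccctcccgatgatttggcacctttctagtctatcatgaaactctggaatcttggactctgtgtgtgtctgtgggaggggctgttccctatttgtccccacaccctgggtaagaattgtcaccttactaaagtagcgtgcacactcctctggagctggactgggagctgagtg
Gsta3 promoter, chr1:21240335-21240634, plus strand: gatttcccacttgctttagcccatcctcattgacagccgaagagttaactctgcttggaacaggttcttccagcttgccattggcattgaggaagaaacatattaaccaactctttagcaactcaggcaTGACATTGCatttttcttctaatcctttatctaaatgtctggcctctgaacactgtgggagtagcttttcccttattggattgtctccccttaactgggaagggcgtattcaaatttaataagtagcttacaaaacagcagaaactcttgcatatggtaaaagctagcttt
The match in Gsta3 began 121 bases before the start. Of the 4 members with a match, Gstm5 and Gstm7 were called lower in normal HECs than in normal BECs and Gsta3 and Mgst1 were not called there.

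The 7 mu-class genes lie together on chromosome 3, and 5 of them passed the filter. Their enzymes conjugate aromatic and lipid electrophiles, and Gstm1 was the most abundant of them per kilobase in each endothelial group. Normalised counts of Gstm1 were 7222, 7104 and 7238 in normal BECs, 4672, 5561 and 4725 in tumour BECs, 4682, 4036 and 3934 in normal HECs and 3227, 3486 and 3525 in tumour HECs. The normal BECs lay above all other libraries, but no difference reached the fold threshold, the largest in size being -0.77 ± 0.09 for normal HECs against normal BECs. Gstm2 had 2951, 3108 and 3215, 4671, 4856 and 5448, 3131, 3228 and 3057 and 2873, 2911 and 3242 normalised counts in the same groups. Here the tumour BECs lay above all other libraries, with log2 fold changes of 0.69 ± 0.08 against normal BECs and -0.73 ± 0.08 for tumour HECs against tumour BECs, both under the fold threshold.

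Gstm5, Gstm4 and Gstm7 were lower in normal HECs than in normal BECs. Gstm5 had 2609, 3254 and 3126 normalised counts in normal BECs, 1265, 1355 and 1526 in tumour BECs, 974, 999 and 1112 in normal HECs and 866, 794 and 919 in tumour HECs, with no overlap between neighbouring groups. It was lower in normal HECs than in normal BECs (-1.54 ± 0.12, DESeq2 adjusted p = 1.69e-36) and in tumour BECs than in normal BECs (-1.12 ± 0.12, DESeq2 adjusted p = 9.57e-20). It shares 178 exon bases with 4933431E20Rik on the opposite strand, and the use of strand in counting is not given in the sources used here. Gstm4 had 569, 812 and 688, 430.4, 356 and 440.3, 282, 224 and 247 and 343, 279 and 236 normalised counts in normal BECs, tumour BECs, normal HECs and tumour HECs. Only the HEC groups overlapped with each other, and the normal HEC against normal BEC difference was the one called (-1.46 ± 0.20, DESeq2 adjusted p = 2.41e-12). Gstm7 had 265, 254 and 178, 109, 175 and 108, 109, 40.7 and 96.5 and 27.7, 20.7 and 67.5 normalised counts in those groups. It was called lower in HECs than in BECs in normal tissue (-1.50 ± 0.49, DESeq2 adjusted p = 0.00429) and with a tumour (-1.76 ± 0.50, DESeq2 adjusted p = 0.00127). Between the HEC groups the Gstm7 value of -1.09 ± 0.51 was not called with all libraries, but was called lower without normal HEC replicate 2 (-1.41, DESeq2 adjusted p = 0.0187) or tumour HEC replicate 3 (-1.76, DESeq2 adjusted p = 0.00245).

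The pi-class genes Gstp1, Gstp2 and Gstp3 are neighbours on chromosome 19. Gstp1, the most abundant cytosolic transferase per kilobase after Gsto1, had 11172, 11587 and 12724 normalised counts in normal BECs, 7076, 6963 and 8088 in tumour BECs, 11150.4, 11765 and 11828 in normal HECs and 11141, 9971 and 11187 in tumour HECs. The tumour BECs lay below all other libraries, by -0.68 ± 0.08 against normal BECs on the log2 scale, which was under the fold threshold. Gstp2 had 1970.1, 1556 and 1141 normalised counts in normal BECs, 1198, 1235 and 1324 in tumour BECs, 894, 1699 and 1317 in normal HECs and 987, 1441 and 1183 in tumour HECs. Its groups overlapped in all 4 comparisons and none was called. The coding sequences of Gstp1 and Gstp2 differed at 12 of 633 bases, and 46.9% of the 100-base stretches of Gstp2 and 25.1% of those of Gstp1 were found in another gene, so their separation is uncertain as well. Gstp3 was at 0 in all libraries of normal BECs and both HEC groups and had 0, 16.1 and 13.9 normalised counts in tumour BECs.

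The theta-class genes, whose enzymes act on small halogenated compounds and organic hydroperoxides, changed in opposite directions between the BEC groups. Gstt1 had 238, 260.1 and 297 normalised counts in normal BECs, 61.2, 59.2 and 44.5 in tumour BECs, 105, 115 and 61.2 in normal HECs and 71.6, 46.4 and 63.1 in tumour HECs. Its normal BEC libraries lay above all others, and it was lower in tumour BECs (-2.27 ± 0.31, DESeq2 adjusted p = 1.58e-12) and in normal HECs (-1.50 ± 0.30, DESeq2 adjusted p = 2.28e-06). Gstt2 had 60.8, 71.8 and 82.3, 291, 309 and 332, 406, 423 and 473 and 282, 485 and 369.7 normalised counts in the same groups, and its normal BEC libraries lay below all others. It was higher in tumour BECs (2.12 ± 0.24, DESeq2 adjusted p = 2.28e-18) and in normal HECs (2.60 ± 0.23, DESeq2 adjusted p = 1.45e-27) than in normal BECs. Gstt3 had 408, 605 and 484, 1177, 1594 and 1636, 1580.2, 1474 and 1474 and 982, 1048 and 1030.5 normalised counts, again with normal BECs below all other libraries. It rose in tumour BECs (1.56 ± 0.17, DESeq2 adjusted p = 6.17e-20) and was higher in normal HECs than in normal BECs (1.60 ± 0.17, DESeq2 adjusted p = 4.72e-21). None of the 3 was called between tumour HECs and tumour BECs. Gstt3 shares 524 exon bases with Gm20441 on the same strand. Gstt1, Gstt2 and Gstt3 lie within one stretch of chromosome 10 (Gstt1 at chr10:75783813-75798584, Gstt2 at chr10:75831114-75837424, Gstt3 at chr10:75774115-75781414, all on the minus strand), so genes beside each other differed between the BEC groups in opposite directions.

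The omega-class genes, whose enzymes reduce dehydroascorbate and other substrates through a cysteine, were both higher in HECs. Gsto1 (chr19:47854970-47864790) had 23235, 26196 and 24380.2 normalised counts in normal BECs, 15252, 14968 and 16281 in tumour BECs, 47086, 73586 and 45813 in normal HECs and 38568, 44016 and 43004 in tumour HECs. No HEC library overlapped with a BEC library. The log2 fold change was 1.43 ± 0.16 for tumour HECs against tumour BECs (DESeq2 adjusted p = 7.99e-19) and 1.17 ± 0.16 for normal HECs against normal BECs (DESeq2 adjusted p = 3.57e-13). Normal HEC replicate 2, the library with little Chst4, held the highest value, and without it the second difference was 0.92, under the fold threshold. Gsto2 (chr19:47865534-47886324), the next gene on the same strand, had 249, 278 and 249, 447, 431 and 445, 1233, 1210.2 and 1212 and 1295, 1604 and 1432 normalised counts, with no overlap between neighbouring groups. It was higher in HECs than in BECs in normal tissue (2.24 ± 0.11, DESeq2 adjusted p = 6.37e-87) and with a tumour (1.71 ± 0.11, DESeq2 adjusted p = 4.48e-57).

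The kappa-class gene Gstk1, which encodes a mitochondrial and peroxisomal enzyme, was near 0 in HECs. Its normalised counts were 209, 340.1 and 347 in normal BECs, 191, 184 and 163 in tumour BECs, 5.07, 16.3 and 3.82 in normal HECs and 0, 22.7 and 0 in tumour HECs. It was called lower in HECs in both comparisons with BECs (DESeq2 adjusted p = 4.74e-07 in normal tissue and DESeq2 adjusted p = 1.64e-05 with a tumour), and no fold is given because the 3 normal HEC libraries together held 25 deposited units and the 3 tumour HEC libraries 23, all of these in replicate 2. The zeta-class gene Gstz1, an enzyme of tyrosine breakdown, had 2229, 2197 and 2273, 1219, 2212 and 2250.2, 1799, 1979 and 1979 and 1633, 1679.5 and 954 normalised counts and was not called in any of the 4 comparisons.

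The 3 microsomal genes had 3 patterns. Mgst1, an enzyme of the endoplasmic reticulum and mitochondria, had 4674, 5001 and 4926 normalised counts in normal BECs, 8099, 8357 and 8667 in tumour BECs, 6333, 5830.0 and 5957 in normal HECs and 5059, 5358 and 4934 in tumour HECs. The tumour BECs were above all other libraries, but the log2 fold changes of 0.78 ± 0.06 against normal BECs and -0.71 ± 0.06 for tumour HECs against tumour BECs were under the fold threshold. Mgst2, which can make leukotriene C4, had 204, 159 and 189, 97.4, 105 and 89.8, 477, 470.2 and 445 and 364, 336 and 465 normalised counts. All HEC libraries lay above all BEC libraries, with calls in normal tissue (1.33 ± 0.18, DESeq2 adjusted p = 6.12e-13) and with a tumour (1.99 ± 0.19, DESeq2 adjusted p = 3.96e-25). Mgst3, a related membrane enzyme with peroxidase activity, had 2274, 2712 and 2678, 859.9, 915 and 1109, 778, 752 and 615 and 798, 778 and 682 normalised counts. Here normal BECs were highest, and Mgst3 was lower in tumour BECs (-1.41 ± 0.14, DESeq2 adjusted p = 1.83e-22) and in normal HECs (-1.84 ± 0.14, DESeq2 adjusted p = 3.99e-37).

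**Figure D3:**
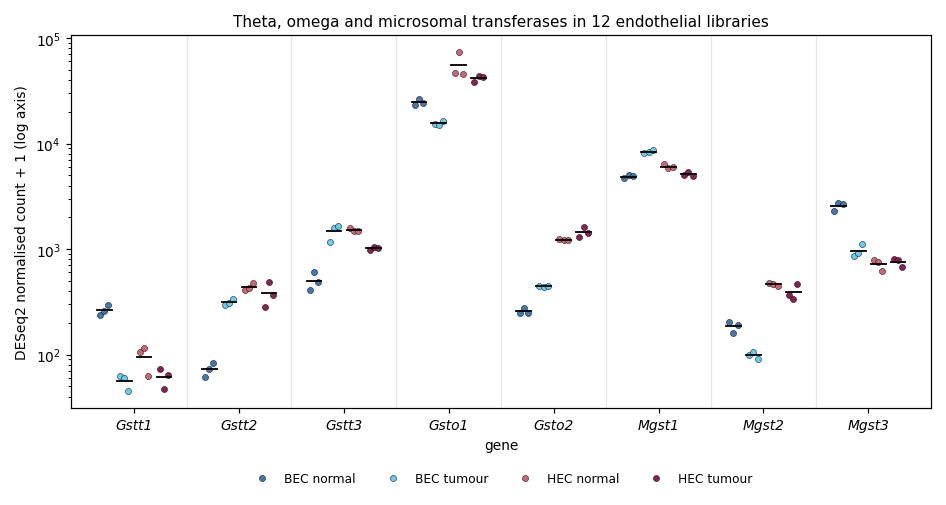
Normalised count + 1 (log axis) of theta-class, omega-class and microsomal members in the 12 endothelial libraries, with a point per library and a line at the group mean. Gsto1, Gsto2 and Mgst2 lie higher in both HEC groups than in both BEC groups, whereas Gstt1 and Mgst3 are highest in normal BECs and Gstt2 and Gstt3 lowest there.

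Among the 8 peroxidases, Gpx1, Gpx2, Gpx3 and Gpx4 carry selenocysteine at the active site, encoded by an in-frame TGA codon. The 63 coding bases around that codon are shown for these 4 because the codon separates them from Gpx5, Gpx6, Gpx7 and Gpx8, in which no in-frame TGA was found before the stop codon. Capitals mark the TGA.
Gpx1, codon 47, chr9:108339421.0-108339483.0, plus strand: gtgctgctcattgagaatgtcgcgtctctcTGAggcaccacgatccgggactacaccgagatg
Gpx2, codon 40, chr12:76795226.0-76795288.0, minus strand: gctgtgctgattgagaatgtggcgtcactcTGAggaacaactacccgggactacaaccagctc
Gpx3, codon 73, chr11:54907226.0-54908548.0, plus strand, across an intron: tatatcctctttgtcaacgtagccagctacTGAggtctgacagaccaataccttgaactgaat
Gpx4, codon 129, chr10:80054707.0-80054769.0, plus strand: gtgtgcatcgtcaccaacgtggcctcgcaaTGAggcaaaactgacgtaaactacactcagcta
Codon numbers count from the start codon of the longest annotated coding sequence.

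Gpx1, the ubiquitous cytosolic peroxidase, and Gpx4, which reduces lipid hydroperoxides in membranes, were abundant in all groups. Normalised counts of Gpx1 were 28280.4, 44135 and 33228 in normal BECs, 30685, 32727 and 34178 in tumour BECs, 25848, 29105 and 27013 in normal HECs and 21420.0, 22060.1 and 22091 in tumour HECs. Those of Gpx4 were 23550.1, 30557 and 28073, 21182, 23294 and 26056, 22669.9, 23098 and 23314 and 22445, 22487 and 21016. Neither was called in any of the 4 comparisons, and their largest log2 fold changes in size were -0.57 ± 0.13 for Gpx1 (tumour HECs against tumour BECs) and -0.25 ± 0.10 for Gpx4 (normal HECs against normal BECs). Gpx8, a peroxidase of the endoplasmic reticulum without selenium, had 4556, 5399 and 5355, 4978, 5044 and 5267, 6599.5, 7038 and 7025 and 7013, 6568 and 6530.5 normalised counts. The HEC libraries all lay above the BEC libraries, by 0.43 ± 0.08 in normal tissue and 0.40 ± 0.08 with a tumour, which was under the fold threshold.

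Gpx3 and Gpx7 were lower in HECs. Gpx3, the secreted plasma peroxidase, had 3004, 1752 and 2336 normalised counts in normal BECs, 803, 1322 and 819.5 in tumour BECs, 175, 172 and 226 in normal HECs and 69.3, 117 and 197 in tumour HECs. Normal BECs lay above tumour BECs and these above all HECs, whereas the HEC groups overlapped. The log2 fold change was -3.63 ± 0.34 for normal HECs against normal BECs (DESeq2 adjusted p = 1e-25), -2.94 ± 0.34 for tumour HECs against tumour BECs (DESeq2 adjusted p = 1.09e-16) and -1.27 ± 0.33 for tumour BECs against normal BECs (DESeq2 adjusted p = 0.000441). Gpx7, a peroxidase of the endoplasmic reticulum without selenium, had 862, 817 and 941, 173, 157 and 251, 0, 14.2 and 7.64 and 6.93, 0 and 0 normalised counts in the same groups. Every BEC library lay above every HEC library, and Gpx7 was called lower in HECs in normal tissue (DESeq2 adjusted p = 1.44e-25) and with a tumour (DESeq2 adjusted p = 2.36e-14). No fold is given, since the normal HEC libraries together held 22 deposited units and the tumour HEC libraries 6. Tumour BECs were below normal BECs for Gpx7 (-2.17 ± 0.57, DESeq2 adjusted p = 0.000432), but this call was lost when any 1 of the 6 BEC libraries was left out (-2.40 to -2.04, DESeq2 adjusted p 0.153 to 0.242), with TMM scaling (-2.14, DESeq2 adjusted p = 0.0708), without a filter (-2.17, DESeq2 adjusted p = 0.0837) and when replicate number was a block (-2.16, DESeq2 adjusted p = 0.201), with a fold of like size each time. Gpx7 and Gpx3, like the sum of the fibroblast and pericyte list with its main gene Acta2, were highest in normal BECs. Gpx5 and Gpx6 stayed at 4 deposited units or fewer in all endothelial libraries, and Gpx2 was at 0 in normal BECs and tumour HECs.

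**Figure D4:**
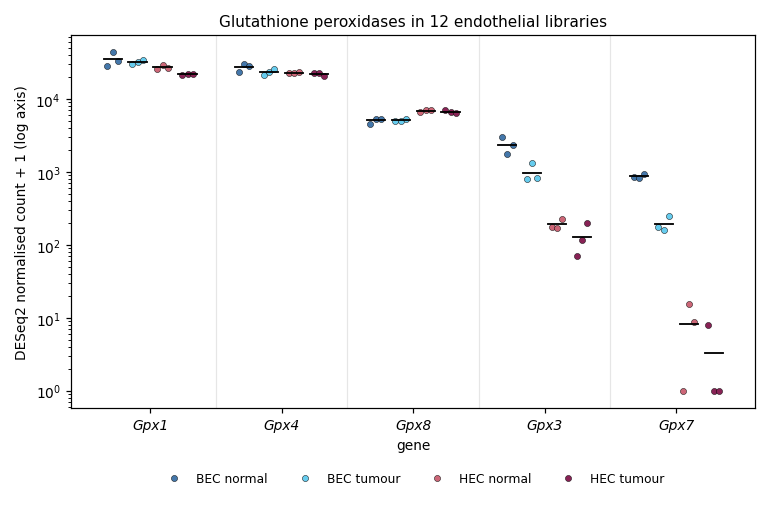
Normalised count + 1 (log axis) of peroxidases in the 12 endothelial libraries, with a point per library and a line at the group mean. Gpx1 and Gpx4 lie close together over all groups, while Gpx3 and Gpx7 step down from normal BECs to tumour BECs and to HECs.

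Whether the effect of the tumour differed between HECs and BECs was tested as the interaction, that is the log2 fold change in HECs minus that in BECs. Of the 27 members, 3 were called with a higher value in HECs, beside 11.2% of genes, and 5 with a lower one, beside 12.1%, or 3 and 3 without Gsta1 and Gm3776. Gsta4 had the largest difference, at 3.59 ± 0.28 (DESeq2 adjusted p = 7.4e-36), since it fell in BECs and changed by 0.25 ± 0.20 in HECs. Gstt1 (1.63 ± 0.44, DESeq2 adjusted p = 0.000832) and Mgst3 (1.48 ± 0.20, DESeq2 adjusted p = 1.95e-12) also fell in BECs and were not called between the HEC groups. In the other direction were Gstt2 (-2.32 ± 0.32, DESeq2 adjusted p = 4.65e-12), Gstt3 (-2.13 ± 0.23, DESeq2 adjusted p = 1.34e-18) and Mgst1 (-1.02 ± 0.08, DESeq2 adjusted p = 1.07e-32). Mgst1 was close to the fold threshold and fell under it without normal BEC replicate 1 (-0.988) or normal HEC replicate 1 (-0.992). For the sum of Gsta1 and Gm3776 the interaction was -1.80, given as a description. The interaction of Gsta2 was -0.25 ± 0.37 (DESeq2 adjusted p = 0.621) and did not pass.

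Levels were also compared between members, as CPM per kilobase of merged exons, with the rank among the 34 members. In all 4 endothelial groups Gpx1, Gpx4 and Gsto1 held the first 3 ranks, followed by Gstp1 in 3 groups. In tumour BECs Gpx8 (72.4 ± 1.95 CPM per kilobase) and Gstp1 (70.9 ± 5.77) came next and did not differ beyond their spread. The 4 first members made up 69.4% to 75.7% of the summed level per kilobase in these groups. Gsto1 was first in normal HECs at 402 ± 113 CPM per kilobase and in tumour HECs at 319 ± 23.1, whereas Gpx1 was first in normal BECs at 353 ± 78.1 and in tumour BECs at 336 ± 17.3. Gsta1 ranked 23 in normal BECs at 0.643 ± 0.0647 CPM per kilobase, 15 in tumour BECs at 5.19 ± 0.444, 9 in normal HECs at 18.7 ± 2.98 and 6 in tumour HECs at 48.8 ± 0.904. In tumour HECs its neighbours Mgst1 (39.2 ± 1.67) and Gm3776 (39.2 ± 1.08) did not differ from each other beyond their spread. Summed over all members, expression was 1971 ± 179 CPM in normal BECs, 1685 ± 104 CPM in tumour BECs, 2194 ± 255 CPM in normal HECs and 1990.3 ± 51.5 CPM in tumour HECs.

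In EO771 cells, 12-HETE lowered 2 of the 21 tested members, Gstp3 and Gsto2, beside 7.79% of all genes tested, and raised none by DESeq2, beside 2.38%, or 1 (Gstm1) with replicate number as a block. At an unadjusted p below 0.05, 6 members were higher, beside 6175 of 11602 genes that passed in either direction. The quasi-likelihood test of edgeR also called 0 higher and 2 lower. The median log2 fold change over members was 0.030, against 0.0012 over all genes. Gstp3 had 609.6, 660.3 and 509 normalised counts with vehicle and 205, 200.1 and 176 with 12-HETE. These groups did not overlap, and the log2 fold change was -1.61 ± 0.16 (DESeq2 adjusted p = 1.56e-23). Gsto2 had 107, 118 and 85.0 normalised counts with vehicle and 26.7, 33.5 and 30.5 with 12-HETE, again without overlap (-1.77 ± 0.28, DESeq2 adjusted p = 3.33e-09).

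Gstm1 was the member with the largest rise in EO771 cells. Its normalised counts were 1124, 805 and 811 with vehicle and 1904, 1744 and 1823 with 12-HETE, without overlap. The log2 fold change was 1.00 ± 0.15 (DESeq2 adjusted p = 5.12e-10), a ratio of 1.997 that fell just under the fold threshold. With replicate number as a block it was 1.01 (DESeq2 adjusted p = 9.75e-13) and was called, as it was without vehicle replicate 1 (1.17), 12-HETE replicate 2 (1.03) or 12-HETE replicate 3 (1.0003). Gstm2 had 787, 795 and 703 normalised counts with vehicle and 1069, 1015 and 1011 with 12-HETE (0.44 ± 0.10, DESeq2 adjusted p = 0.000113), a change without overlap that was under the fold threshold. Gsto1 had 12858, 16809.6 and 12042 and 9714, 10440.3 and 10062 normalised counts, and every 12-HETE library was below every vehicle library (-0.47 ± 0.14, DESeq2 adjusted p = 0.00263), also under the threshold.

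Gstp1 had 6683, 4816 and 6114 normalised counts with vehicle and 7483, 7756 and 7465 with 12-HETE, without overlap, at a log2 fold change of 0.37 ± 0.13 (DESeq2 adjusted p = 0.0147). Gpx1 had 4223, 5057 and 3836 and 4400.5, 4717 and 4276 normalised counts and Gpx4 5083, 5693 and 4293 and 4420.0, 4842 and 4655, and the treatments overlapped for both. Their log2 fold changes were 0.03 ± 0.12 and -0.11 ± 0.12, and neither was called. The other 13 tested members were not called, with log2 fold changes from -0.78 (Gstt2) to 0.95 (Gsta3), but Gsta4 was called higher without vehicle replicate 2 (1.23) or 12-HETE replicate 3 (1.05) and Gsta3 without vehicle replicate 2 (1.57). The fibroblast and pericyte list summed to 390 to 614 CPM with vehicle and 998 to 1037 CPM with 12-HETE, nearly all of it Dcn (385 to 608 CPM and 987 to 1028 CPM) with Lum at 0, and epithelial markers to 3056 to 3985 CPM and 2043 to 2093 CPM, and their part was not tested. Gm3776 had no count in any EO771 library, Gsta1 had at most 4 counts and Gsta2 at most 4. The other 10 members under the filter in EO771 (Gpx3, Gpx5, Gpx6, Gpx7, Gstm3, Gstm6, Gstm7, Gstt1, Gstt3 and Gstt4) held at most 13 counts in any library. Gstp3, by contrast, ranked 5 per kilobase with vehicle, where its libraries overlapped those of Gstm1 on that scale. It was at 0 or near it in all endothelial libraries. The endothelial and EO771 tables were normalised separately and are not compared by test.

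**Figure D5:**
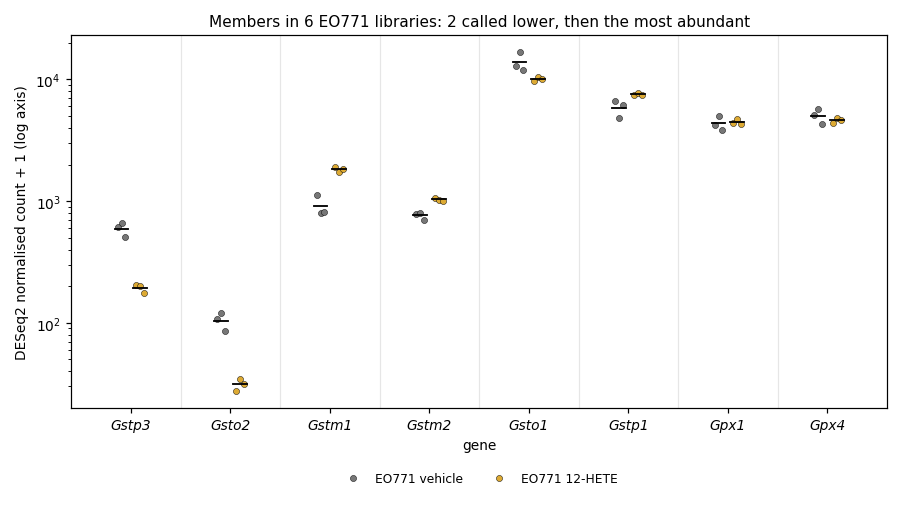
Normalised count + 1 (log axis) of 8 members in the EO771 libraries, with a point per library and a line at the group mean. Gstp3 and Gsto2 are lower with 12-HETE in all 3 libraries, Gstm1 is higher without reaching the fold threshold, and Gpx1 and Gpx4 overlap.

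The enzymes that make, export and break down glutathione were examined as a list of 20 genes, all of them tested in the endothelial cells. In normal HECs against normal BECs, 2 were called higher and 9 lower, beside 17.1% and 15.1% of all genes, with a median log2 fold change of -0.88 over the list, against 0.0046 over all genes. In tumour HECs against tumour BECs 6 were called lower, beside 10.7% of genes, and none higher, beside 11.2%, by either DESeq2 or edgeR, with 3 higher at an unadjusted p below 0.05. The counts were 1 higher and 1 lower for tumour HECs against normal HECs, beside 4.58% and 3.21% of genes, and 2 and 4 for tumour BECs against normal BECs, beside 12.4% and 10.8%. Chac1, which breaks down glutathione inside the cell, had 9744 ± 374 normalised counts in normal HECs against 1739 ± 225 in normal BECs (2.49 ± 0.10, DESeq2 adjusted p = 9.63e-142), 7468 ± 333 in tumour BECs and 4381 ± 284 in tumour HECs, so it rose with the tumour in BECs (2.10 ± 0.10, DESeq2 adjusted p = 3.2e-101) and fell in HECs (-1.15 ± 0.10, DESeq2 adjusted p = 4.39e-31). Abcc4, a transporter that exports glutathione and its conjugates, was lower in normal HECs than in normal BECs, at 1049 ± 129.7 against 3989 ± 143 (-1.93 ± 0.12, DESeq2 adjusted p = 6.57e-54). In EO771 cells 3 of 13 tested genes of the list were called lower by DESeq2 and edgeR, beside 7.79% of genes, and none higher, beside 2.38%, with 3 higher at an unadjusted p below 0.05. The 3 lower genes were Chac1 (41.0 ± 2.37 with 12-HETE against 2119 ± 255 with vehicle, -5.69 ± 0.18, DESeq2 adjusted p = 7.1e-209) and both chains of the cystine transporter, Slc7a11 (-1.28 ± 0.20, DESeq2 adjusted p = 3.49e-09) and Slc3a2 (-1.32 ± 0.15, DESeq2 adjusted p = 2.73e-17).

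Relatives of the transferases, which include enzymes that use glutathione to make eicosanoids, numbered 10 tested genes. By DESeq2 and by edgeR, 3 were called lower in normal HECs than in normal BECs (15.1% of all genes), 1 in tumour HECs than in tumour BECs (10.7%), 1 in tumour HECs than in normal HECs (3.21%) and 3 in tumour BECs than in normal BECs (10.8%), where 2 were called higher (12.4%). In the first 3 comparisons none was called higher, with 2, 3 and 2 higher at an unadjusted p below 0.05. None of 6 was called in EO771 cells by either tool, with 3 lower at an unadjusted p below 0.05. The median log2 fold change of the list was -0.60 for normal HECs against normal BECs and -0.28 between the BEC groups. Ltc4s, the leukotriene C4 synthase, had 5122 ± 867 normalised counts in normal BECs, 35.6 ± 17.6 in tumour BECs and 27.4 ± 11.6 in normal HECs. The difference was -7.16 ± 0.36 between the BEC groups (DESeq2 adjusted p = 2.3e-84) and -7.55 ± 0.37 between normal HECs and normal BECs (DESeq2 adjusted p = 1.47e-88). Clic5, a chloride channel protein with a transferase fold, and Ptges, a prostaglandin E synthase, were lower in tumour BECs than in normal BECs (-3.31 ± 0.14, DESeq2 adjusted p = 1.82e-117, and -2.28 ± 0.37, DESeq2 adjusted p = 4.19e-09).

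Of the other peroxidases and thiol proteins (20 genes), DESeq2 and edgeR called 2 lower in tumour HECs than in tumour BECs, beside 10.7% of genes, and 1 lower in each of the other 3 comparisons, beside 3.21% to 15.1%, and none higher, beside 4.58% to 17.1%, with 2 to 6 higher at an unadjusted p below 0.05. None of 19 was called in EO771 cells by either tool, with 7 higher and 1 lower at an unadjusted p below 0.05. The median log2 fold change of the list lay between -0.17 and -0.03 in the 4 endothelial comparisons. Glrx, a glutaredoxin that removes glutathione from proteins, was called lower in all 4, with 5231 ± 425 normalised counts in normal BECs, 2248 ± 248 in tumour BECs, 1338 ± 106 in normal HECs and 641 ± 58.5 in tumour HECs. The factors that insert or carry selenium (11 genes) included 2 called lower in each HEC against BEC comparison, beside 15.1% and 10.7% of genes, and 3 called higher in tumour BECs against normal BECs, beside 12.4%, where their median log2 fold change was 0.38 against 0.0083 over all genes. The latter were Lrp8, a receptor that takes up selenoprotein P (1.76 ± 0.14, DESeq2 adjusted p = 2.2e-33), Selenop, selenoprotein P itself (1.40 ± 0.22, DESeq2 adjusted p = 1.56e-09), and Eefsec, the selenocysteine elongation factor (1.05 ± 0.19, DESeq2 adjusted p = 2.08e-07). Selenop is also made by macrophages, and the sum of the myeloid markers was also higher in tumour BECs, as given above. The part of myeloid cells in the Selenop value was not tested. The selenocysteine peroxidases Gpx1 and Gpx4 were not called in that comparison, and Gpx3 was lower.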

How the data were processed

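The authors sorted endothelial cells, mapped the reads with STAR to GRCm38, counted fragments per gene with featureCounts and deposited a table of whole numbers without normalisation. In the endothelial table low values piled up at multiples of 3.645 to 3.715 (median 3.691 over libraries), so 1 deposited unit is not 1 fragment, and the values were treated as estimated counts deposited by the authors. The deposited EO771 table held raw counts per gene symbol, without such steps. Totals were 56410964 to 79357993 units per endothelial library and 17294591 to 18624179 counts per EO771 library. The methods describe a strand-specific kit and removal of duplicates for EO771 libraries in the RNA editing analysis. Whether strand was used in counting, whether duplicates were removed before it and how reads mapping to several genes were treated are not given in the sources used here for the counts, and labels and methods differ in the library kit they name.

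Gene symbols and positions came from the GRCm38 annotation, in which 260 endothelial identifiers had no symbol. For EO771, 298 symbols had no match and 33 stood on more than 1 line. Genes with a mean of at least 10 were tested with the two-sided Wald test of DESeq2 1.42.0 (R 4.3.3), with p-values adjusted by Benjamini-Hochberg over all genes tested. The tool, the filter and the thresholds follow the methods of the study, whereas 1 fit for the 12 endothelial libraries, another for the 6 EO771 libraries and group as the only factor were chosen here. A gene was called at an adjusted p below 0.05 and a fold above 2. Values in the text are counts divided by DESeq2 size factors, given as mean ± SD or per library with n = 3, and errors of log2 fold changes are standard errors. edgeR 4.0.16, TMM scaling, other filters, summed paralogs, leaving out libraries and replicate blocks were alternatives. The scripts were tested on simulated data with known changes.

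In EO771, same-numbered libraries of the 2 treatments deviated together from their group means (correlations of 0.111, 0.173 and 0.328 over 9635 genes for replicates 1, 2 and 3), a hint of pairing from the data and not from the labels. The values given are from the fit without a block, and the fit with replicate number as a block is given beside a call that it changes. Per-library values are given for each member called in a comparison or with a mean above 1000 in a group. From each pathway list at most 3 called genes per comparison, those with the largest Wald statistic, were eligible to be named. The members, the lists and the rules were chosen with earlier results of these data known. Shared sequence was the share of 100-base stretches of a gene's annotated transcripts found in transcripts of another gene. Windows of coding sequence came from the longest complete coding sequence annotated on GRCm38, and promoters from RefSeq. Sequences were handled with biopython 1.88.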

Additional observations from a re-analysis of the deposited data

Results flagged for a closer look

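For 6 members other than Gsta1 and Gm3776, the change with the tumour differed between HECs and BECs by the test of the interaction (DESeq2, adjusted over all genes tested, with the fold threshold). Of these 25 members, 3 were called higher and 3 lower, beside 11.2% and 12.1% of all genes tested, so the count is near the share over all genes. The log2 change in HECs minus that in BECs was 3.59 for Gsta4, 1.63 for Gstt1 and 1.48 for Mgst3, each of which fell in tumour BECs. It was -2.32 for Gstt2, -2.13 for Gstt3 and -1.02 for Mgst1. Gstt2 and Gstt3 rose in tumour BECs, and the Mgst1 change there was under the fold threshold. None of the 6 was called between tumour HECs and normal HECs. Gstt3 (-0.56, DESeq2 adjusted p = 0.0026) and Mgst1 (-0.24, DESeq2 adjusted p = 0.00033) were nevertheless lower in tumour HECs without overlap, under the fold threshold. Beside these, the summed fibroblast and pericyte list, mostly Acta2, was at 827 to 836 CPM in normal BECs and 90.0 to 121 CPM in tumour BECs and the myeloid list at 108 to 128 CPM and 1456 to 1948 CPM, and the part of either in these differences was not tested.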

How the results depend on the processing

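Most values kept their direction and side of the threshold: of the single-gene values under alternatives, 2682 stayed, 70 passed the threshold only under the alternative, 29 no longer passed it, 4 moved by more than the spread, and 1 reversed, which was the interaction of Gstk1 without tumour HEC replicate 2 (-4.59). Of the counts of called members, 191 stayed within 1.5 times and 27 did not. With adjusted p alone, the members higher and lower were 10 and 12 for tumour HECs against tumour BECs, 5 were lower for tumour HECs against normal HECs, 9 and 11 changed for tumour BECs against normal BECs, 7 were higher in the interaction and 6 in EO771. Over all 18511 endothelial genes the same counts were 4801 and 5256, 3426, 4908 and 5034, and 4246, and 2637 of 11602 genes in EO771. Tested against a 2-fold change, 0 were higher for tumour HECs against normal HECs, 3 lower for tumour BECs against normal BECs, 1 higher in the interaction and 1 lower in EO771. Over all genes these counts were 64, 986 and 814 of 18511, and 391 of 11602 in EO771. With the alpha cluster summed, 1 was higher for tumour HECs against normal HECs and 3 for tumour BECs against normal BECs. With TMM scaling 1 (Gstm7) was lower for tumour HECs against normal HECs, and without a filter 1 (Gstm1) was higher in EO771. Leaving out 1 library gave 0 to 2 lower for tumour HECs against normal HECs (Gpx3, Gpx7, Gstk1 or Gstm7), 3 to 5 higher in the interaction (5 without normal HEC replicate 1, among them Gstm4) and 0 to 2 higher in EO771. The antioxidant response element core with 1 further base was in 1 member. The cause was not tested.

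Over all genes, calls for normal HECs against normal BECs numbered 3165 higher and 2800 lower, 5815 and 5902 with adjusted p alone, and 1636 and 1717 against a 2-fold change, and the other comparisons moved likewise (EO771 276 and 904, 2637 and 2813, and 20 and 391). At an unadjusted DESeq2 p below 0.05, in either direction, 12206 of 18511 genes passed for normal HECs against normal BECs and 10793 for tumour HECs against tumour BECs. This number was 7826 for tumour HECs against normal HECs, 10718 for tumour BECs against normal BECs and 6175 of 11602 in EO771. In EO771, 511 genes were higher without vehicle replicate 3 and 182 with a minimum mean of 50. With replicate number as a block, the endothelial counts of members were the same except 5 lower for tumour BECs against normal BECs, where Gpx7 was lost, and EO771 had 1 higher (Gstm1), with no other call changed in EO771. Same-numbered endothelial libraries correlated at -0.0147 to 0.126, which cannot settle whether they were paired, and the labels do not say. A fit of only the 2 groups compared does not exist for the interaction.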

Other observations

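Gm10639, a gene of the same chromosome 9 cluster that the naming rule did not take, had 10.6, 0 and 4.06 normalised counts in normal BECs, 0, 26.2 and 13.9 in tumour BECs, 105, 63.1 and 57.3 in normal HECs and 304, 117 and 229 in tumour HECs. It was named after its values were seen. All HEC libraries lay above all BEC libraries, and the HEC groups did not overlap.

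Gpx2, an epithelial peroxidase of the gut, was at 13.9, 0 and 66.3 normalised counts in tumour BECs and at 3.82 or below in every other endothelial library. The highest value was in tumour BEC replicate 3, where epithelial markers were at 93.0 CPM. In EO771 cells Gpx2 was low, with means of 8.57 normalised counts with vehicle and 15.2 with 12-HETE. Gstp3, which EO771 cells expressed, was also present only in tumour BECs among the endothelial groups, at 0, 16.1 and 13.9 normalised counts. The part of tumour cells in these values was not tested.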
